A study of Mus musculus with 4 samples.

Results

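Dual-alpha cells are thymocytes in which 2 productive T cell receptor alpha chains were read beside a single beta chain. They were found by barcode: a cell was kept when its receptor library held exactly 2 TRA contigs (assembled alpha-chain transcripts) and exactly 1 TRB contig (beta chain), and when the expression library of the same genotype held at least 2000 UMIs (unique molecular identifiers, 1 per counted RNA molecule), at least 500 genes and at most 10% mitochondrial UMIs. In all, 2771 of 27310 kept cells met the rule. Of these, 1303 came from the 12929 cells of the WT library and 1468 from the 14381 cells of the Cgas KO library. Single-alpha cells, with exactly 1 TRA and 1 TRB contig, were the comparison and numbered 8287 and 9184. Cells with 2 TRA and 2 TRB contigs, 534 and 661 in number, were set beside them as a class with a second beta chain as well.

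The thymocytes had been sorted as CD4+CCR7+ cells after lysis of red blood cells. CCR7 is a chemokine receptor that thymocytes gain after positive selection. The group called WT consisted of Cd4Cre mice, and the group called Cgas KO of Cd4Cre Cgasfl/fl mice, so the controls carried the Cre as well. Cd4Cre is active from about the double-positive stage, at which alpha chains are assembled, and Cgas encodes the cytosolic DNA sensor cGAS. The study asked how cGAS affects transcription in these thymocytes. There was 1 expression library and 1 receptor library per genotype. Cre driven by Cd4 deletes in cells that have expressed Cd4, so other cells of the thymus keep the gene. How many mice went into a library, and of what age and sex, the labels do not say. Because each genotype has 1 library of a kind, genotypes are set side by side without a test.

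An alpha chain is made by joining a V segment (TRAV) to a J segment (TRAJ). Double-positive thymocytes can rearrange both copies of the locus, and they can rearrange each copy again, with new joins taking TRAV segments farther upstream and TRAJ segments farther downstream until selection ends the process. The TRAJ segments are numbered downwards along the locus, so a high number lies at the 5′ end, near the TRAV segments, and a low number at the 3′ end. Unlike the beta chain, the alpha chain is held to 1 copy only loosely, and T cells with 2 alpha chains are a regular part of the repertoire.

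In the pairs below, both contigs of a cell had at least 5 UMIs, except for the pair with TRAV11, in which both had 4. Each line gives the nucleotide sequence coding for the CDR3, the loop at the TRAV to TRAJ join, from 5′ to 3′. Capitals mark the bases that match neither the run most chains of that TRAV share at the 5′ end nor the run most chains of that TRAJ share at the 3′ end. The first pair, from WT, shares TRAJ18 and shows 2 different joins to the same J segment.
TRAV13D-1 with TRAJ18, 13 UMIs: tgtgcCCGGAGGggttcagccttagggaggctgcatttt
TRAV13-1 with TRAJ18, 10 UMIs: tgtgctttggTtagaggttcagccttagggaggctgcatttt

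The second pair is a Cgas KO cell in which both chains used TRAJ26, again with different joins.
TRAV6N-7 with TRAJ26, 20 UMIs: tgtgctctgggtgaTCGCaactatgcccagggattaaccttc
TRAV7N-4 with TRAJ26, 13 UMIs: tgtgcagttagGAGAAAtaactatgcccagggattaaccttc

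A further WT pair lies at the other extreme, with TRAJ segments 53 numbers apart.
TRAV14-3 with TRAJ4, 12 UMIs: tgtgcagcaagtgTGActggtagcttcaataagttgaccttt
TRAV6-7-DV9 with TRAJ57, 6 UMIs: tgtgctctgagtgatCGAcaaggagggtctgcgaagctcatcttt

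A pair from WT holds a TRAV segment that was more frequent in dual-alpha cells, on the chain with fewer UMIs.
TRAV6D-4 with TRAJ21, 13 UMIs: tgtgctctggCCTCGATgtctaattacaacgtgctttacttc
TRAV15D-1-DV6D-1 with TRAJ21, 9 UMIs: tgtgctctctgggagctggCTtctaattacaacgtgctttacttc

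The last pair, from Cgas KO, joins TRAV11 to TRAJ18, the combination known from invariant natural killer T cells, beside an ordinary alpha chain.
TRAV11 with TRAJ18, 4 UMIs: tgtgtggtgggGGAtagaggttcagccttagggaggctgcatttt
TRAV7-5 with TRAJ15, 4 UMIs: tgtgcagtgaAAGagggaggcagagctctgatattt

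3 properties of the libraries touch the results. First, receptors recurred in the Cgas KO library: 536 pairs of barcodes had all chains equal, against 12 pairs and a group of 3 in WT. Counting every barcode whose TRB and a TRA were found again in another barcode, 11.0% of the dual-alpha and single-alpha barcodes of Cgas KO recurred and 0.323% of those of WT. Among dual-alpha cells these were 145 of 1468 (9.88%) and 2 of 1303. The partners of a Cgas KO pair were alike in RNA. After each cell was thinned to 2000 UMIs at random, the partner of a barcode with a UMI of the cycling genes Top2a or Mki67 had one as well in 56.4% of cases, while 7.33% of all cells had one. The barcode letters of partners differed at 6 or more positions. Second, 276 kept barcodes occurred in both genotypes, 43 and 25 of them being dual-alpha. Beyond that, the classes differed in depth. Dual-alpha cells had a median of 5017 UMIs in WT and 4673 in Cgas KO, single-alpha cells 4839 and 4379, and cells with 2 TRA and 2 TRB 9629 and 8512. Whether barcodes that recur, are shared or hold more RNA stand for single cells was not tested, and results that move with them are given with and without them.

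Dual-alpha cells made up 13.6% (95% exact binomial interval 12.9 to 14.3) of WT cells with 1 TRB and 1 or 2 TRA contigs. In Cgas KO the share was 13.8% (13.1 to 14.5). The intervals, which cover counting error only, overlap over most of their length. When the second TRA contig had to have at least 3 UMIs, the shares were 10.9% and 11.0%. Without recurring receptors, a choice made after the data were seen, they were 13.6% and 14.0%, and without barcodes kept in both genotypes 13.4% and 13.8%.

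The share was higher in deeper cells. In WT it was 11.0% (8.51 to 13.9) at 2000 to 2999 UMIs and 20.6% (16.8 to 24.7) at 10000 UMIs or more. In Cgas KO it was 10.5% (9.04 to 12.2) and 21.4% (17.4 to 25.9). Between 4000 and 6000 UMIs, a range also chosen after the data were seen, it was 13.2% in WT and 14.0% in Cgas KO. Cells with 2 TRA and 2 TRB contigs were far more tied to depth: their share of kept cells was 0.387% at the lowest depth and 21.0% at the highest in WT, and 0.355% and 21.2% in Cgas KO.

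**Figure D1:**
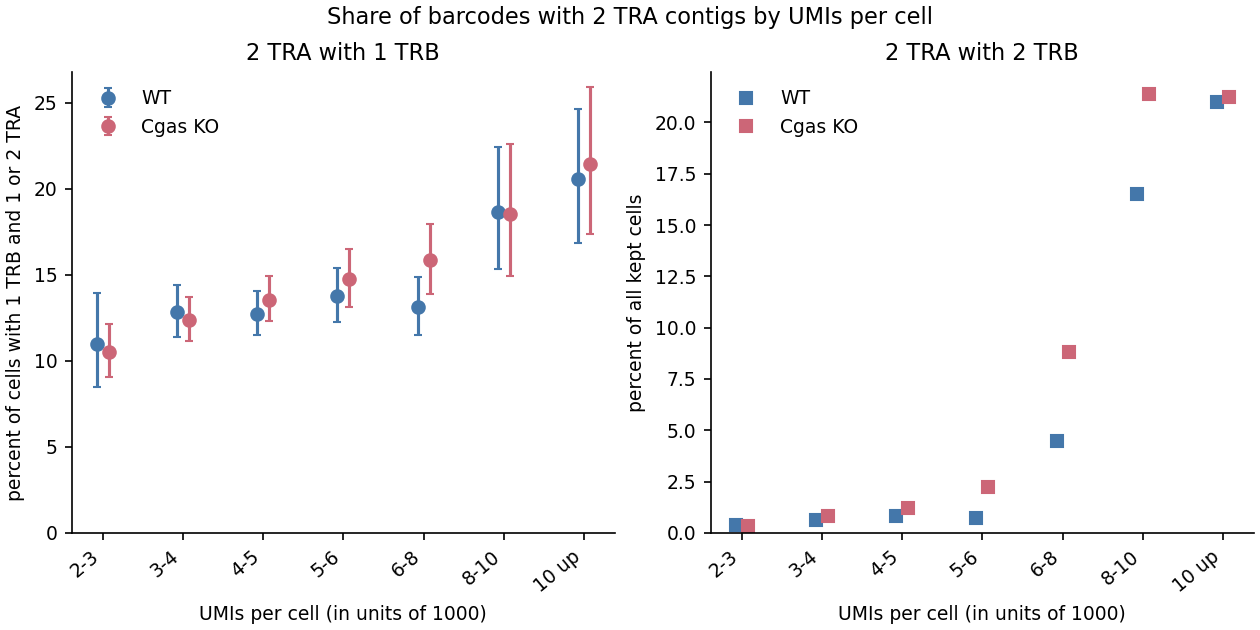
Share of barcodes with 2 TRA contigs (vertical axes, percent) by UMIs per cell (horizontal axes, in units of 1000) in WT and Cgas KO. Left, dual-alpha cells among cells with 1 TRB and 1 or 2 TRA, with 95% exact binomial intervals, rising from 11.0% and 10.5% to 20.6% and 21.4%. Right, cells with 2 TRA and 2 TRB among all kept cells, without intervals, at most 2.23% below 6000 UMIs and reaching 21.0% and 21.2%.

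The 2 alpha chains of a cell used TRAJ segments that lay close together. The median difference in TRAJ number was 7 in WT and 7 in Cgas KO. Chains taken from different dual-alpha cells of the same library differed by a median of 14 in WT and 13 in Cgas KO. In 42.1% of WT and 40.1% of Cgas KO dual-alpha cells the chains were at most 5 numbers apart, against 20.4% and 21.9% of pairs taken from different cells. Differences above 20 were found in 7.06% and 8.11% of cells, against 33.2% and 29.7% of pairs from different cells.

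Across dual-alpha cells, the TRAJ number of the chain with more UMIs and that of the chain with fewer UMIs had a Spearman coefficient of 0.689 in WT (1303 cells) and 0.627 in Cgas KO (1468 cells). These are descriptions over the cells of 1 library each, which share their sort and their preparation. In cells with 2 TRA and 2 TRB contigs the same Spearman coefficient was 0.0991 (534 cells) and 0.141 (661 cells), and the median differences were 14 and 12. The closeness seen in dual-alpha cells was weak in the class with 2 beta chains, where 22.1% and 24.1% of cells had TRAJ at most 5 apart.

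**Figure D2:**
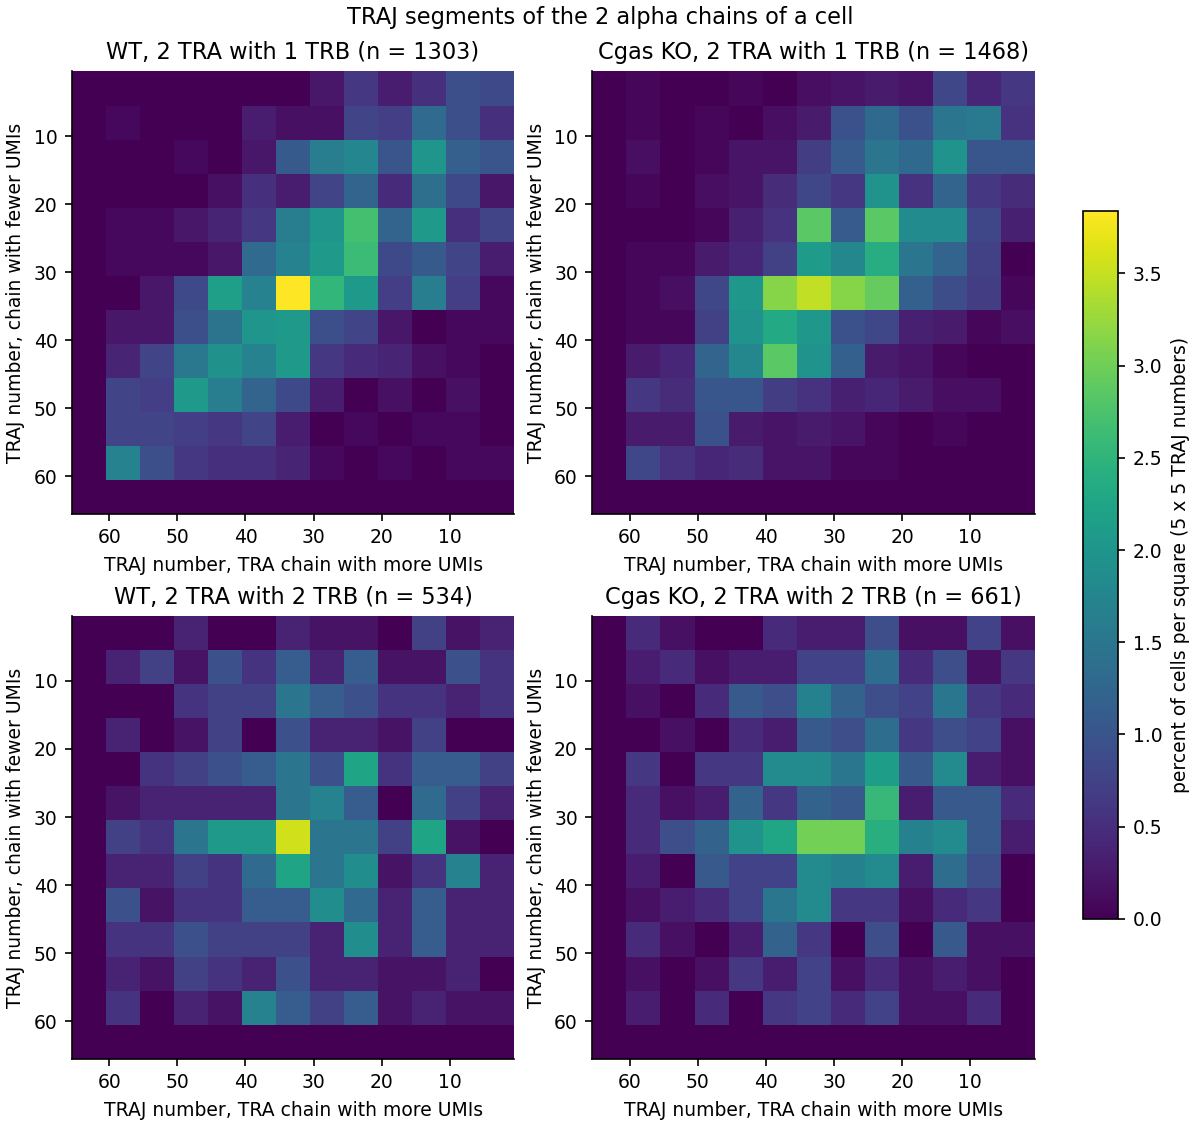
TRAJ numbers of the 2 alpha chains of each cell, the chain with more UMIs on the horizontal and the chain with fewer UMIs on the vertical axis, both running from the 5′ to the 3′ end of the locus; colour gives the percent of cells per square of 5 by 5 numbers. In dual-alpha cells (top) the cells lie along the diagonal, with Spearman coefficient 0.689 and 0.627; in cells with 2 TRA and 2 TRB (bottom) they are spread out, with Spearman coefficient 0.0991 and 0.141.

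The tie held at both ends of the locus. Of WT dual-alpha cells whose chain with more UMIs used a 5′ segment (TRAJ41 or higher), 68.3% had another 5′ segment beside it and 1.28% a 3′ segment (TRAJ20 or lower). In Cgas KO these shares were 56.8% and 5.71%. Where the chain with more UMIs used a 3′ segment, its partner did so too in 53.3% (WT) and 53.6% (Cgas KO), and used a 5′ segment in 4.93% and 3.21%. With 2 TRA and 2 TRB, a 5′ segment had another beside it in 33.9% and 22.4% of cells and a 3′ segment in 22.0% and 21.6%. A 3′ segment had another beside it in 25.4% and 34.1% of those cells, so in Cgas KO the difference between the classes was smaller at that end.

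**Figure D3:**
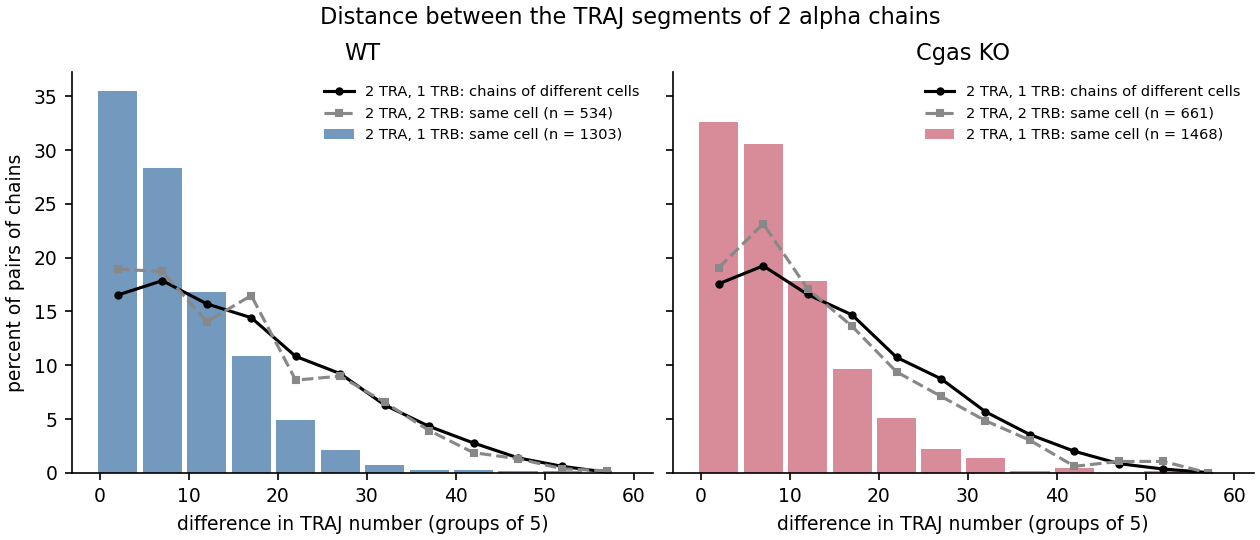
Difference in TRAJ number (horizontal axis, groups of 5) against the percent of pairs (vertical axis) in WT and Cgas KO. Bars are the 2 chains of dual-alpha cells (1303 and 1468), the black line pairs of chains from different dual-alpha cells, and the grey line the chains of cells with 2 TRA and 2 TRB (534 and 661). Differences of 0 to 4 made up 35.5% of WT dual-alpha cells and 16.5% of pairs from different cells.

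The relation held in every subset examined, though not to the same degree. The Spearman coefficient was 0.705 and 0.653 in WT and Cgas KO where the second TRA contig had at least 3 UMIs, and 0.632 and 0.537 where it had fewer. It was 0.689 and 0.622 without recurring receptors, 0.689 and 0.630 without barcodes kept in both genotypes, and 0.697 and 0.638 in cells of 4000 to 6000 UMIs. Dual-alpha cells with more than 2 times the median depth of single-alpha cells, 104 and 126 in number, had the lowest values, 0.535 and 0.400.

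The TRAV segments of a cell were tied less closely. Ordered by their place on the locus, they had a Spearman coefficient of 0.299 in WT and 0.213 in Cgas KO, against 0.135 and 0.0344 in cells with 2 TRA and 2 TRB. Within a chain, TRAV place and TRAJ number had a Spearman coefficient of 0.473 and 0.467 over single-alpha chains. In dual-alpha cells that Spearman coefficient was 0.448 and 0.416 on the chain with more UMIs and 0.432 and 0.409 on the other.

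Sharing of a segment was uncommon. The 2 chains had the same TRAJ in 6.52% of WT and 4.56% of Cgas KO dual-alpha cells, against 2.81% and 3.04% of pairs from different cells. They had the same TRAV in 29 WT cells (2.23%) and 32 Cgas KO cells (2.18%). The CDR3 nucleotides were equal on both chains in 2 WT cells and 0 Cgas KO cells.

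The joins were of like size in both classes. The median number of bases assigned to neither segment was 3 on single-alpha chains and on both chains of dual-alpha cells in each library. Joins with no such base made up 10.6% of single-alpha chains in WT and 8.75% and 8.14% of the chains with more and with fewer UMIs. In Cgas KO these shares were 11.1%, 10.0% and 8.99%.

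The 2 alpha chains of a cell are told apart here by their UMIs, so their order is given by construction. The contig with more UMIs had a median of 7 UMIs and the contig with fewer a median of 4 in both libraries, and the single alpha chain of the comparison cells had 5. Together the 2 chains reached a median of 11 UMIs, above the single chain. The chain with fewer UMIs had a median of 0.60 times the UMIs of the other chain in WT and 0.636 times in Cgas KO, and in cells with 2 TRA and 2 TRB it had 0.60 times in both. The chains had equal UMIs in 148 and 204 cells. The beta chain differed little: its median was 15 UMIs in dual-alpha and 14 in single-alpha cells of WT, and 13 in both classes of Cgas KO.

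RNA of both TRAV segments was also counted in the expression libraries, which share their cell barcodes with the receptor libraries of the same genotype. Of the chains whose TRAV could be looked up, in dual-alpha cells with 2 different TRAV, the chain with fewer UMIs had at least 1 UMI of its TRAV gene in 68.6% of 1274 WT cells and 65.3% of 1436 Cgas KO cells. The chain with more UMIs had one in 66.2% and 63.2%, and the chain of single-alpha cells in 67.7% and 66.2%. Single-alpha cells without that TRAV contig, which give the background, had a UMI of the same genes in 1.34% and 1.22% of cases. Both TRAV genes were detected together in 45.7% of the WT cells and 41.9% of those of Cgas KO. The chain with fewer UMIs thus had RNA about as often as a single chain, far above background. In cells with 2 TRA and 2 TRB, it had RNA of its TRAV in 68.8% (WT) and 66.1% (Cgas KO). The chain with more UMIs of those cells had it in 67.2% and 62.9%, so this measure did not set the classes apart. Some TRAV genes are near copies of one another, so UMIs can be credited to a near copy.

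7 of 85 TRAV segments tested (8.24%) were used more often in dual-alpha than in single-alpha cells, and 0 were used less often (edgeR quasi-likelihood test over chains summed by library and class, Benjamini-Hochberg adjusted). That test rests on 2 libraries and 1 residual degree of freedom, and at an unadjusted p under 0.05 it called 20. Without recurring receptors 5 were also called lower, TRAV9D-1, TRAV16, TRAV19, TRAV14-3 and TRAV9-1, and TRAV16 was the 1 called lower with TMM factors and with a second contig of at least 3 UMIs. The 7 were TRAV15D-1-DV6D-1, TRAV13N-3, TRAV15-1-DV6-1, TRAV11, TRAV15D-2-DV6D-2, TRAV13N-4 and TRAV1. Each made up at most 0.350% of single-alpha chains, and 2 belong to the names known from invariant receptors, TRAV11 from natural killer T cells and TRAV1 from mucosal-associated invariant T cells. The segments with DV in their name can also serve the delta chain locus, which lies inside the alpha locus.

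TRAV15D-1-DV6D-1 was found on 3 single-alpha and 10 dual-alpha chains in WT and on 5 and 16 in Cgas KO, out of 8287 and 2606 chains in WT and 9184 and 2936 in Cgas KO. Its log2 fold change was 3.29 ± 0.33 (SE, 2 libraries; edgeR adjusted p = 0.018). TRAV13N-3 was found on 5 and 14 chains in WT and on 6 and 19 in Cgas KO (log2 fold change 3.20 ± 0.28, edgeR adjusted p = 0.018). TRAV11 was found on 10 and 23 chains in WT and 14 and 22 in Cgas KO, a ratio of shares of 7.31 (95% exact conditional interval 3.35 to 17.2) and 4.92 (2.40 to 10.4). All 7 segments were higher in both libraries. TRAV15D-2-DV6D-2 sat at the threshold (edgeR adjusted p = 0.0499).

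Taken as a set, which these same values chose, the 7 segments made up 0.965% of WT single-alpha chains and 4.49% of WT dual-alpha chains, and 0.860% and 4.12% in Cgas KO. At least 1 of them was carried by 117 of 1303 WT dual-alpha cells (8.98%) and by 120 of 1468 Cgas KO dual-alpha cells (8.17%). It sat on the chain with fewer UMIs in 76 WT and 76 Cgas KO chains and on the chain with more in 41 and 45. RNA of the segment was found in the expression library in 65.0% of the 117 WT and 69.7% of the 119 Cgas KO cells that carried exactly 1, and RNA of the partner's TRAV in 61.5% and 58.8%. The median difference in TRAJ number to the partner chain was 8 and 9. Of these cells, 1 in WT and 10 in Cgas KO had a recurring receptor.

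**Figure D4:**
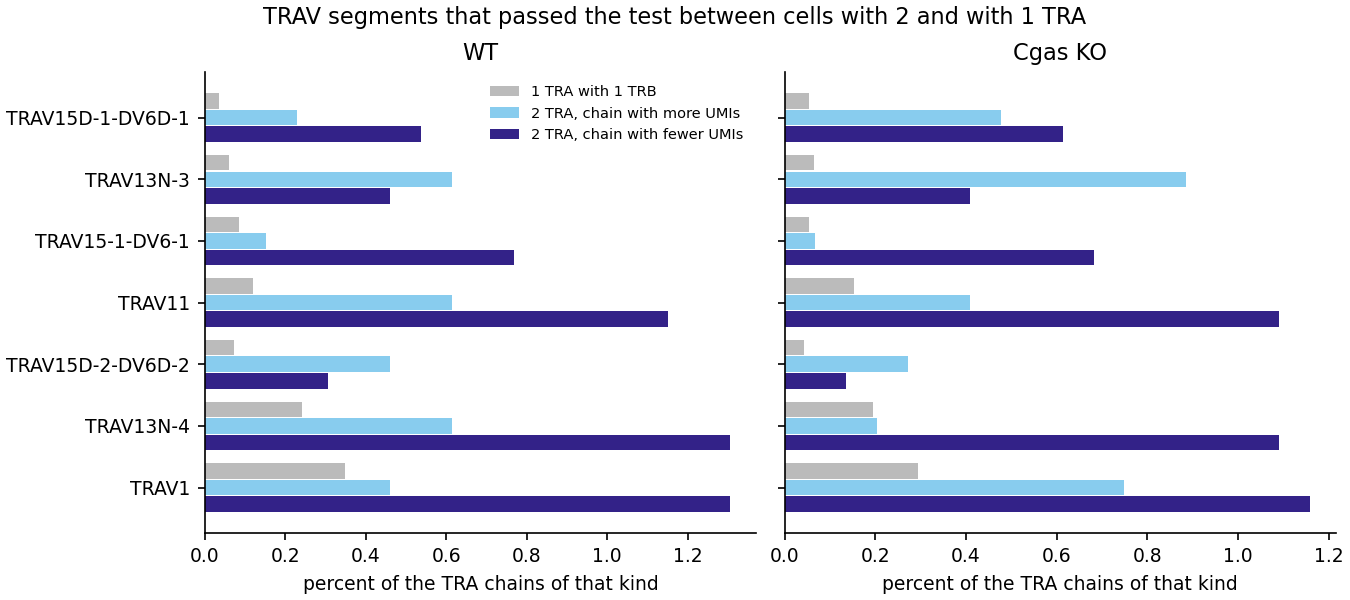
The 7 TRAV segments that passed the test: percent of TRA chains (horizontal axis) in single-alpha cells (grey) and on the chain with more UMIs (light blue) and with fewer UMIs (dark blue) of dual-alpha cells, in WT and Cgas KO. TRAV13N-3 and TRAV15D-2-DV6D-2 were more frequent on the chain with more UMIs in both libraries, the other 5 on the chain with fewer.

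When only the chain with more UMIs was counted, 0 TRAV segments passed and 16 had an unadjusted p under 0.05. With the chain with fewer UMIs, 10 passed as higher and 2 as lower.

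Among TRAJ segments, 7 of 43 (16.3%) passed: 4 were used more often and 3 less often in dual-alpha cells (same test). TRAJ35 rose from 0.314% of single-alpha to 1.04% of dual-alpha chains in WT and from 0.261% to 1.29% in Cgas KO (log2 fold change 2.02 ± 0.49, edgeR adjusted p = 0.0034). TRAJ28 rose from 0.495% to 0.959% in WT and from 0.414% to 1.53% in Cgas KO (1.47 ± 0.48, edgeR adjusted p = 0.026). TRAJ32 and TRAJ17 also passed, but TRAJ17 had a ratio of 0.916 in WT and 1.72 in Cgas KO, so the libraries moved in different directions.

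Of the 3 segments used less often, TRAJ56 and TRAJ49 are 5′ segments and TRAJ40 lies just outside that group. TRAJ56 fell from 2.45% to 1.65% in WT and from 2.10% to 1.12% in Cgas KO, TRAJ49 from 3.48% to 2.69% and from 3.20% to 2.01%, and TRAJ40 from 3.69% to 2.72% and from 3.30% to 2.59%. The most 5′ segment found, TRAJ58, had 1.22% and 0.652% in WT and 1.21% and 0.409% in Cgas KO but did not pass (edgeR adjusted p = 0.098), and neither did TRAJ2 at the 3′ end. Without recurring receptors 0 of 43 TRAJ segments passed by edgeR and 10 had an unadjusted p under 0.05. The fold changes of 6 of the 7 were about as large then: TRAJ35 had a log2 fold change of 2.15 and TRAJ28 of 1.47, TRAJ56 of -0.68, with adjusted p of 0.092, 0.092 and 0.057 by edgeR. That of TRAJ17 was 0.26 (edgeR adjusted p = 0.48). All 7 TRAV segments still passed without them.

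By region of the locus, 5′ segments made up 26.0% of single-alpha chains in WT, against 23.9% of the chains with more UMIs and 27.0% of the chains with fewer in dual-alpha cells. In Cgas KO these shares were 24.2%, 19.1% and 21.3%. The dual-alpha shares lay on both sides of the single-alpha share in WT and under it in Cgas KO.

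Invariant receptors were rare in every class. TRAV11 with TRAJ18 was found in 3 of 1303 WT and 3 of 1468 Cgas KO dual-alpha cells, and in 3 of 8287 and 7 of 9184 single-alpha cells. The 95% exact binomial interval was 0.0475 to 0.671% in WT dual-alpha cells and 0.00747 to 0.106% in WT single-alpha cells. TRAV1 with TRAJ33 was found in 1 and 3 dual-alpha cells and in 3 and 0 single-alpha cells, where the count of 0 allows a share of up to 0.0327% (3 counts of the total). Such counts are too low to compare genotypes.

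Gene expression of dual-alpha cells was close to that of single-alpha cells. UMIs were summed per library and class, which gave 7391498 and 7692510 UMIs for dual-alpha and 44060309 and 44115247 for single-alpha cells. Of 14487 genes tested, 120 (0.828%) were higher and 30 (0.207%) lower in dual-alpha cells (edgeR quasi-likelihood test, library as a block, Benjamini-Hochberg adjusted p under 0.05), and the median log2 fold change over all genes was -0.00. The fit has 1 residual degree of freedom and its 2 libraries also differ in genotype. The UMIs of a gene can come in clumps from few cells, so the counts of cells and the ratio within each library stand beside its p-values, and a DESeq2 Wald test on the same sums called 25 genes.

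Of the 120 higher genes, 48 were TRAV segments, out of 83 TRAV genes tested, and 5 TRAV genes were among those lower. This repeats the choice of the cells by their alpha chains in a second library and is no separate result. Leaving out all receptor segments, 70 genes were higher and 18 lower. With library totals alone as the scaling, these numbers were 73 and 48, and 124 and 60 over all genes, so the lean to higher calls was smaller.

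The genes of the sorted markers were at like levels in both classes. Cd4, the coreceptor of the sort, had 251.5 CPM (UMI counts scaled to a common total per class) in single-alpha and 254.2 in dual-alpha cells of WT, and 254.2 and 254.4 in Cgas KO. Ccr7 had 626.5 and 621.3 in WT and 731.7 and 734.2 in Cgas KO. Cd40lg, a helper T cell ligand, had 115.7 and 116.9 CPM in WT and 141.1 and 135.8 in Cgas KO. Several defining markers of other cells had 0 UMIs in dual-alpha cells of both libraries: Ms4a1 and Pax5 of B cells, Lyz2 of macrophages, and Krt5 and Psmb11 of epithelium. These were at or near 0 in single-alpha cells as well, except Lyz2 with 2.95 CPM in WT. Others were present: Cd79a had 16 and 12 UMIs and Cd79b 13 and 21 in dual-alpha cells of WT and Cgas KO, and Epcam 45 and 64. Of the 9 B cell markers 5 could be tested and 0 passed (edgeR, 1 at an unadjusted p under 0.05, 0 by DESeq2), with a summed level of 59.5 CPM in single-alpha and 53.4 in dual-alpha cells of WT and 72.6 and 71.1 in Cgas KO. Of 13 dendritic cell and macrophage markers 5 could be tested and 0 passed (edgeR, 3 at an unadjusted p under 0.05, 0 by DESeq2), with 162.7 and 187.6 CPM in WT and 155.5 and 160.0 in Cgas KO. All 5 had a positive log2 fold change, with a median of 0.65. In cells of 4000 to 6000 UMIs H2-Aa (log2 fold change 1.80, edgeR adjusted p = 0.0059) and Cst3 (0.35, edgeR adjusted p = 0.0021) passed as higher, and in cells of at most 2 times the median depth Cst3 did (0.19, edgeR adjusted p = 0.045). Most of the level came from Cd74, with 531 and 505 UMIs in dual-alpha cells, and Cst3, with 776 and 693. H2-Aa, an MHC class II gene, had ratios of 3.12 in WT and 0.945 in Cgas KO and 63.6% and 46.7% of its dual-alpha UMIs in 1 cell of each library. The part of such RNA in the other differences was not tested.

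Trac, the constant segment carried by every alpha chain, was higher in dual-alpha cells. It had 167.3 CPM in single-alpha and 203.3 in dual-alpha cells of WT, and 177.0 and 221.0 in Cgas KO. The ratio was 1.22 (95% exact conditional interval 1.15 to 1.29) in WT and 1.25 (1.18 to 1.32) in Cgas KO, and the log2 fold change was 0.30 ± 0.03 (SE, 2 libraries; edgeR adjusted p = 1.4e-15). After thinning to 2000 UMIs the share of cells with a Trac UMI was 28.1% and 33.5% in WT and 28.9% and 34.8% in Cgas KO. The difference was spread over cells, since the cell with the most UMIs held 0.665% and 0.588% of them. Reading 2 contigs itself needs alpha-chain RNA, whose part in the difference was not tested. Trac passed also with thinned cells (edgeR adjusted p = 0.017) and by DESeq2 (adjusted p = 0.0016).

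The beta-chain constant genes did not pass. Trbc2 had ratios of 1.03 and 1.03 and Trbc1 of 1.11 and 0.974 in WT and Cgas KO. Cd3e, a signalling subunit of the receptor complex, had ratios of 0.992 and 1.02. The list of 23 receptor complex and signalling genes had a median log2 fold change of 0.00. Against 0.828% and 0.207% over all genes, 1 of the 23 was higher and 0 lower. That gene was Cd5, a surface protein that restrains receptor signalling and whose level follows its strength, with 509.0 and 548.9 CPM in single-alpha and dual-alpha cells of WT and 508.2 and 553.9 in Cgas KO (log2 fold change 0.11 ± 0.02, edgeR adjusted p = 0.00015). The ratios of Cd5 were 1.08 and 1.09, and it did not pass in thinned cells (edgeR adjusted p = 0.65), where its log2 fold change was 0.13.

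Of 22 genes induced by receptor signalling, 2 were higher, namely Cd5 and Ikzf2, and 1 was lower, against 0.828% and 0.207% over all genes. At an unadjusted p under 0.05 by edgeR stood 11 of 22, against 969 of 14487 genes. Of the 22, 9 had a positive log2 fold change, and the median was -0.01. In cells of at most 2 times the median depth 4 were higher and 0 lower: Cd5, Ikzf2, Pdcd1, an inhibitory receptor, and Gadd45b, a stress response gene. In cells of 4000 to 6000 UMIs Gadd45b alone passed, 14 of 22 were positive and the median was 0.05. Nr4a1, an orphan nuclear receptor induced within hours of receptor engagement, had ratios of 0.974 in WT and 1.06 in Cgas KO. Egr1, an immediate early factor, was the one lower, with ratios of 0.932 and 0.828 (log2 fold change -0.19 ± 0.05, edgeR adjusted p = 0.011), and Jun, from the list of stress genes, had ratios of 0.924 and 0.956 (-0.09 ± 0.02, edgeR adjusted p = 0.018). Neither passed in thinned cells.

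Genes of the G2 and M phases of the cell cycle were higher in dual-alpha cells. Of 18 genes in the list, 16 passed as higher, 0 as lower, and all 18 were above 1 in both libraries, with a median log2 fold change of 0.37. DESeq2 called 6 of them. Their summed level was 1194 CPM in single-alpha and 1512 in dual-alpha cells of WT, and 1302 and 1638 in Cgas KO. Ube2c, an enzyme that marks mitotic proteins for destruction, had 74.1 and 129.1 CPM in WT and 82.5 and 120.8 in Cgas KO (log2 fold change 0.67 ± 0.04, edgeR adjusted p = 2.4e-49). Its UMIs came from 63 and 98 dual-alpha cells, of which the top cell held 7.97% and 5.81%. Top2a, which untangles chromosomes, had ratios of 1.22 and 1.36, and the mitotic cyclin gene Ccnb1 of 1.92 and 1.42. Plk1, a mitotic kinase, had ratios of 1.70 and 1.31, and Cenpf, a kinetochore protein, 1.43 and 1.59. Cdc20, an activator of mitotic exit that was not in the list, had 1.58 and 1.61.

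S phase genes did not follow. Of 18 in that list 1 was higher and 0 lower, against 0.828% and 0.207% over all genes. The median log2 fold change was -0.02. Pcna, the sliding clamp of DNA polymerase, had ratios of 0.980 and 0.998, and Mcm5, part of the replicative helicase, 0.949 and 0.927. The gene that passed was Stmn1, a microtubule regulator, with ratios of 1.09 and 1.12. Of 16 genes for rearrangement and repair of breaks, H2ax alone passed, as higher, against 0.828% of all genes. Its ratios were 1.22 and 1.27. H2ax codes for the histone variant that marks DNA breaks, and its RNA also rises in cycling cells.

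The G2 and M phase difference moved with depth. Cells with a thinned UMI of Top2a or Mki67 had a median of 8773 UMIs in WT and 7133 in Cgas KO, against 4777 and 4337 for the others. When cells above 2 times the median depth were left out, 1 of the 18 genes passed (6 at an unadjusted p under 0.05) and their median log2 fold change was 0.20. In cells of 4000 to 6000 UMIs 0 of 18 passed by edgeR (4 at an unadjusted p under 0.05) and the median was 0.19. With every cell thinned to 2000 UMIs, 2 of 18 passed by edgeR (14 at an unadjusted p under 0.05). All 18 were positive in thinned cells and the median was 0.41. The share of cells with a thinned UMI of Top2a or Mki67 was 6.58% in single-alpha and 6.83% in dual-alpha cells of WT, a ratio of 1.04 (0.821 to 1.30), and 7.09% and 8.86% in Cgas KO, a ratio of 1.25 (1.03 to 1.51). In cells with 2 TRA and 2 TRB it was 7.68% and 10.4%. Among WT cells of 4000 to 6000 UMIs, dual-alpha cells made up 8.26% (3.85 to 15.1) of those with such a UMI. They made up 13.3% (12.3 to 14.3) of those without. In Cgas KO these shares were 17.8% (12.4 to 24.3) and 13.9% (12.9 to 14.9), so the libraries moved in different directions. The part of depth in the difference was not tested further.

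**Figure D5:**
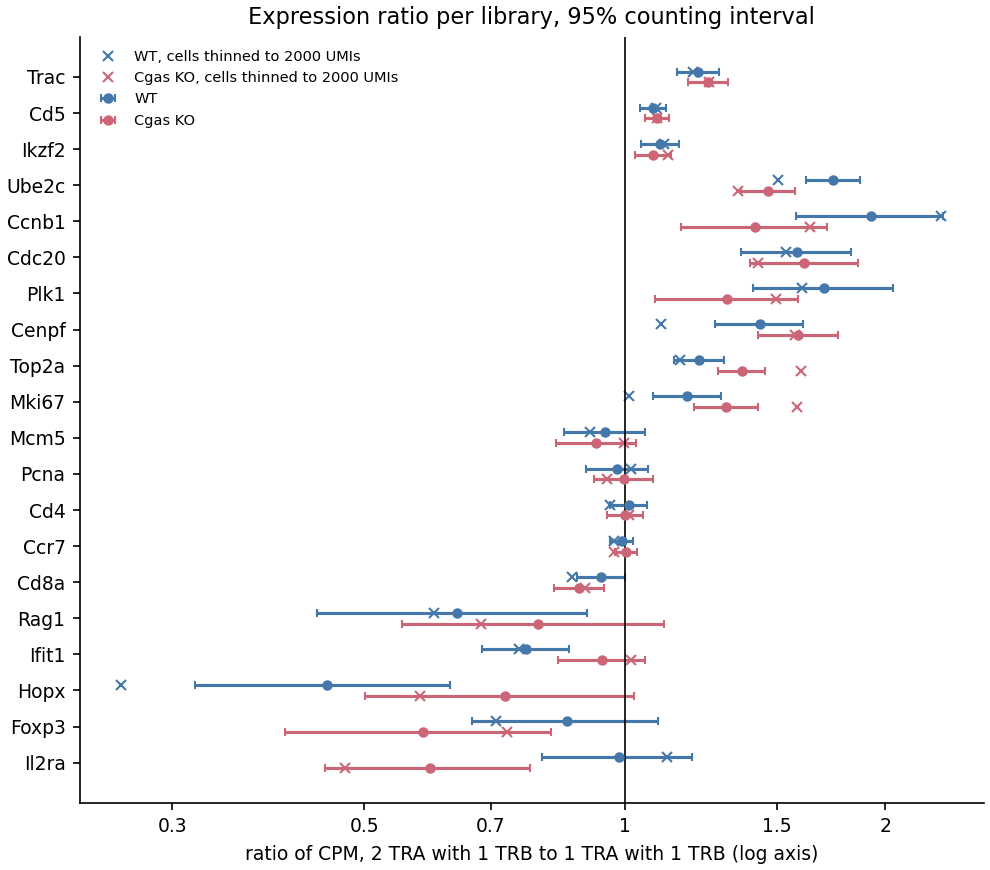
Ratio of CPM in dual-alpha to single-alpha cells (horizontal log axis) for 20 genes in WT and Cgas KO. Circles with bars are all kept cells with 95% exact conditional intervals, and crosses are cells thinned to 2000 UMIs. Trac lies at 1.22 and 1.25 and mitotic genes lie above 1, while Pcna, Mcm5, Cd4 and Ccr7 lie near 1.

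Of 19 regulatory T cell genes tested, 7 had an unadjusted p under 0.05 by edgeR, against 969 of 14487 over all genes. Their median log2 fold change was 0.00. By adjusted p 1 of them was higher and 0 lower, against 0.828% and 0.207% over all genes. That gene was Ikzf2, which encodes Helios, a factor of regulatory and strongly signalled thymocytes, with ratios of 1.10 and 1.08 (log2 fold change 0.12 ± 0.03, edgeR adjusted p = 0.016). It did not pass in thinned cells (edgeR adjusted p = 0.58). When the second TRA contig had to have 3 or more UMIs its log2 fold change was -0.013, so the direction turned.

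Foxp3, the lineage factor of regulatory T cells, had 12.0 CPM in single-alpha and 10.3 in dual-alpha cells of WT, and 8.23 and 4.81 in Cgas KO. Its log2 fold change was -0.44 ± 0.15 and did not pass (edgeR adjusted p = 0.25). The ratio was 0.858 (0.666 to 1.09) in WT and 0.585 (0.405 to 0.821) in Cgas KO. After thinning, 2.06% of single-alpha and 1.61% of dual-alpha cells had a Foxp3 UMI in WT, and 1.31% and 1.09% in Cgas KO. Il2ra, the high-affinity IL-2 receptor chain, had ratios of 0.984 (0.803 to 1.197) and 0.596 (0.450 to 0.777) and did not pass either (edgeR adjusted p = 0.37). For the CPM of both genes the interval held 1 in WT and lay under 1 in Cgas KO. The thinned Foxp3 ratio of 0.781 (0.471 to 1.23) in WT was 0.335 (0.133 to 0.706) with a second contig of at least 3 UMIs and 1.29 (0.741 to 2.12) after thinning to 1000 UMIs, so it depended on these choices.

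Of 18 genes of the double-positive stage and of rearrangement, 1 was higher and 1 lower, against 0.828% and 0.207% over all genes. At an unadjusted p under 0.05 by edgeR stood 7 of 18, against 969 of 14487 genes. Of the 18, 3 had a positive log2 fold change, and the median was -0.07. In both libraries 9 were lower and 2 higher. Rag1 and Rag2 code for the recombinase. Rag1 had 7.60 and 4.87 CPM in single-alpha and dual-alpha cells of WT and 6.39 and 5.07 in Cgas KO (log2 fold change -0.49 ± 0.19, edgeR adjusted p = 0.35). Rag2 had 1.77 and 1.76 CPM in WT (78 and 13 UMIs) and 1.70 and 0.520 CPM in Cgas KO (75 and 4 UMIs). Cd8a was lower by little, with ratios of 0.939 and 0.886 (log2 fold change -0.13 ± 0.04, edgeR adjusted p = 0.047), while Cd8b1 did not pass, with ratios of 0.922 and 0.973. The gene that was higher was Nrgn, a calmodulin-binding protein, with ratios of 1.56 and 1.201, and its top cells held 10.7% and 8.70% of its UMIs. Cells with thinned UMIs of Cd4 and of Cd8a or Cd8b1 made up 4.81% of single-alpha and 4.99% of dual-alpha cells in WT, and 4.91% and 5.18% in Cgas KO. In cells with 2 TRA and 2 TRB they made up 8.61% and 8.62%.

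Of genes of immature and of maturing single-positive thymocytes, 0 of 15 and 0 of 20 passed by edgeR, with 3 and 7 at an unadjusted p under 0.05 and 0 and 0 by DESeq2. S1pr1, the receptor that lets mature thymocytes leave, had ratios of 0.891 and 1.04, and Itm2a, high after selection, 1.04 and 0.985. Over all 14487 genes, 969 had an unadjusted p under 0.05 by edgeR.

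Of 14 innate-like T cell genes tested, 4 had a positive log2 fold change, and the median was -0.08. At an unadjusted p under 0.05 by edgeR stood 5 of 14, against 969 of 14487 genes. By adjusted p, against 0.828% and 0.207% over all genes, 0 were higher and 1 was lower. It was Zbtb16, the factor PLZF of natural killer T cells, with 77 UMIs in 9 single-alpha cells and 0 in dual-alpha cells of WT, and 118 UMIs in 21 and 13 UMIs in 3 cells of Cgas KO (log2 fold change -1.38 ± 0.39, edgeR adjusted p = 0.037). Its top dual-alpha cell in Cgas KO held 84.6% of the UMIs, so the difference rests on few cells. Hopx, a small homeodomain protein that was not in the list, was lower in both libraries. It had 11.6 and 5.28 CPM in WT and 6.62 and 4.81 in Cgas KO (-0.85 ± 0.18, edgeR adjusted p = 0.00028). It also passed when cells above 2 times the median depth were left out (edgeR adjusted p = 0.00067), but not in thinned cells (edgeR adjusted p = 0.20).

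Of 29 interferon-stimulated genes 0 were higher and 1 was lower, against 0.828% and 0.207% over all genes. At an unadjusted p under 0.05 by edgeR stood 11 of 29, against 969 of 14487 genes. Of the 29, 4 had a positive log2 fold change, and the median was -0.06. In both libraries 19 were lower and 0 higher. Without recurring receptors 3 were called lower, 2 were positive and the median was -0.09. Over all kept cells the summed level was 3649 CPM in single-alpha and 3430 in dual-alpha cells of WT, and 3317 and 3304 in Cgas KO. Ifit1, which binds viral RNA, passed as lower, with ratios of 0.769 (0.684 to 0.862) and 0.940 (0.837 to 1.05) (log2 fold change -0.24 ± 0.06, edgeR adjusted p = 0.016), a difference carried by WT. Of 10 cGAS-STING pathway genes 0 passed by edgeR (1 at an unadjusted p under 0.05, 0 by DESeq2). Sting1, the adaptor below cGAS, had ratios of 0.954 and 1.07, and Ctcf, the chromatin architecture factor named in the study's title, 0.969 and 1.04.

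Of the genes with the largest changes outside these groups, several rested on few molecules or cells. Sdk1, an adhesion molecule, rose from 2.11 CPM in single-alpha to 3.92 in dual-alpha cells of WT and from 2.29 to 5.72 in Cgas KO (log2 fold change 1.13 ± 0.24, edgeR adjusted p = 0.00033). Itgb8, an integrin that activates TGF-beta, had ratios of 1.92 and 1.64 from 40 and 26 dual-alpha UMIs. Gpr65, a proton-sensing receptor, was counted in 400 and 376 dual-alpha cells, with ratios of 1.15 and 1.17 (0.21 ± 0.05, edgeR adjusted p = 0.010). Plac8 and Apoe were lower, with ratios of 0.279 and 0.530 for Plac8 and 0.289 and 0.717 for Apoe, from 8 to 16 dual-alpha UMIs. Tnfrsf11a had 2 UMIs and 2 UMIs in dual-alpha cells, against 52 and 58 in single-alpha cells. The single-alpha sums were larger, at 44060309 and 44115247 UMIs against 7391498 and 7692510. Ehmt2, a histone methyltransferase, was counted in 201 and 194 dual-alpha cells with ratios of 0.804 and 0.838 (-0.29 ± 0.08, edgeR adjusted p = 0.027).

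The haemoglobin genes Hbb-bs and Hbb-bt had the largest log2 fold changes, 6.47 and 7.04, and they came from 2 barcodes. Of 3892 Hbb-bs UMIs in Cgas KO dual-alpha cells, 2014 and 1855 lay in 2 barcodes, and 23 in all others. These 2 barcodes had the same TRB and both TRA chains in common, and they held 271 and 268 of the 540 Hbb-bt UMIs. In WT, dual-alpha cells had 14 Hbb-bs UMIs. Without recurring receptors the log2 fold change of Hbb-bs was -0.19 (edgeR adjusted p = 0.99).

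Recurring receptors gave a further view of the alpha chains. In Cgas KO, 47 pairs of dual-alpha barcodes shared the TRB and both TRA chains, and 49 pairs of a dual-alpha with a single-alpha barcode shared the TRB and 1 TRA. In the latter the single-alpha barcode held the chain with more UMIs in 28 pairs and the chain with fewer in 21. In these pairs an alpha chain read in 1 barcode was not read in its partner. WT had 0 and 2 such pairs.

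Between genotypes, genes with a large ratio were few in both classes, as far as 1 library of each shows. Of 6757 genes compared, 47 (0.696%) had a ratio of at least 1.5 either way in dual-alpha cells, 21 higher and 26 lower in Cgas KO. In single-alpha cells 39 (0.577%) did, 13 higher and 26 lower. The same genes served both classes, and the dual-alpha sums were far smaller, so these counts do not compare the classes evenly. Haemoglobin genes also differed in dual-alpha cells through 2 Cgas KO barcodes. Hbb-bs went from 1.89 CPM (WT) to 505.9 (Cgas KO) there, and Hba-a1 from 0.135 to 42.5. The targeted gene Cgas had 30 UMIs in WT and 19 in Cgas KO dual-alpha cells, a ratio of CPM of 0.609 (95% exact conditional interval 0.324 to 1.12), and a ratio of 0.685 (0.549 to 0.854) in single-alpha cells. Some genes differed far more, and in both classes: Ifi213 was at 1.08 CPM in WT and 94.1 in Cgas KO dual-alpha cells, a ratio of 86.96 against 101.6 in single-alpha cells, and Ifi206 had ratios of 14.6 and 16.9. Aim2, another DNA sensor gene, had ratios of 0.253 and 0.202, and Slamf6, a lymphocyte surface receptor, 2.88 and 2.59. For Cgas itself, whether the counted molecules lie within the deleted part of the gene is not given, so its level does not check the deletion.

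Foxp3 was at 10.3 CPM in WT and 4.81 in Cgas KO dual-alpha cells, a ratio of 0.468 (0.307 to 0.702). In single-alpha cells the ratio was 0.687 (0.599 to 0.786). Il2ra had a ratio of 0.497 (0.359 to 0.682) in dual-alpha and 0.820 (0.734 to 0.916) in single-alpha cells. The 2 intervals overlap for Foxp3 and do not for Il2ra, but they cover counting error alone and the difference between classes was not tested. Trac had a Cgas KO to WT ratio of 1.09 in dual-alpha and 1.06 in single-alpha cells, and Cd5 of 1.01 and 0.998.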

How the data were processed

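Count matrices of all barcodes (33696 genes; UMI counts) and tables of filtered receptor contigs were deposited by the authors, 1 of each per genotype. Per the submitters' processing notes, Cell Ranger 7.0, Seurat 5.1.0 and the build mm10 were used, while the matrices name Cell Ranger 8.0.1 per the file headers. Per the labels' protocols the expression kit was a 3′ kit, yet TRAV genes carry UMIs. The matrices held 588428 and 586687 barcodes and 84763106 and 87310091 UMIs, so cells were cut as stated. No barcode had more than 2 contigs of a chain. No doublet caller was run. Members and gene lists were chosen with earlier results of these data known.

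UMIs were added up over the cells of a class in each library, and the sums were tested with edgeR 4.0.16 (TMM, filterByExpr, quasi-likelihood, library as a block), with DESeq2 1.42.0 as an alternative, in R 4.3.3. The block is the library that both classes come from. The expression fit was tested on simulated sums with known changes. Those sums held no clumps of UMIs from few cells, so they do not check calls on such genes. Named genes were the 10 largest passing changes in each direction with at least 100 UMIs and the same direction in both libraries, a fixed set, and up to 4 per list; receptor, ribosomal and mitochondrial genes were left out of the first. TRAV order was taken from RefSeq GRCm38.p6, in which 88 of 88 TRAV and 43 of 43 TRAJ names matched. Intervals are 95% exact (Clopper-Pearson or conditional) and cover counting error only. The labels do not say that libraries stand for separate mice. The p-values and SE come from summed counts and a spread estimated with all genes together. They do not measure the difference between the libraries of a single gene alone, so the ratios within each library are needed beside them.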

Additional observations from a re-analysis of the deposited data

How the results depend on the processing

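Both classes come from each library, so the library term pairs them, and no replicate numbers exist beyond it. Leaving out a library would leave no residual degree of freedom. Beside the 150 genes called, edgeR called 33 (30 higher, 3 lower) with cells thinned to 2000 UMIs, 282 with a second TRA contig of at least 3 UMIs, 56 in cells of 4000 to 6000 UMIs, 91 without receptor and immunoglobulin segments, 184 (124 higher, 60 lower) with library totals alone and 0 without the library term (495 at an unadjusted p under 0.05), and DESeq2 called 25. Of the 88 calls outside receptor segments, 5 were shared with thinned cells, 4 with cells of 4000 to 6000 UMIs, 19 with cells of at most 2 times the median depth, 76 without recurring receptors and 9 with DESeq2. Subsets test fewer cells; the cause of the other changes was not tested. Dual-alpha cells made up 10.9% (WT) and 11.0% (Cgas KO) with a second contig of at least 3 UMIs, and 15.1% in Cgas KO from 4000 UMIs up. Cells with TRAJ at most 5 apart were 50.5% in WT and 50.2% in Cgas KO when segments were counted by rank. TRAV calls numbered 0 with the chain with more UMIs, 12 with the chain with fewer, 14 without recurring receptors (9 higher, 5 lower) and 11 without the library term; TRAJ calls numbered 0, 1, 0 and 2. Among shares of thinned cells, the Trac ratio in WT was 1.07 after thinning to 1000 UMIs and 1.05 in cells of 4000 to 6000 UMIs. The Top2a or Mki67 ratio in WT was 0.803 in cells of at most 2 times the median depth and 0.593 in cells of 4000 to 6000 UMIs. The Foxp3 or Il2ra ratio in WT was 1.38 after thinning to 1000 UMIs and 0.696 with a second contig of at least 3 UMIs. The Il2ra ratio in Cgas KO turned to 1.12 after thinning to 1000 UMIs. The log2 fold change of Hbb-bs turned to -0.15 with a second contig of at least 3 UMIs and -0.19 without recurring receptors, and that of Ikzf2 to -0.013 with a second contig of at least 3 UMIs. Subsets by depth (4000 to 6000 UMIs) and by recurring receptors were chosen after the data were seen.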
